A study of Mus musculus with 2 samples.

Results

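TET2 peaks at divergent coding gene pairs are the TET2-bound intervals that lie where 2 protein-coding genes start close together and are read in opposite directions. An autosomal peak was a member when its midpoint lay within 1 kb of the transcription start sites (TSSs) of 2 different protein-coding genes that stand head to head, with the minus-strand TSS to the left of the plus-strand TSS and the TSSs at most 1 kb apart. Of 14103 deposited peaks, 13828 were autosomal and 387 of these were members, 2.80% of the autosomal peaks and 7.58% of the 5103 autosomal peaks within 1 kb of a protein-coding TSS. The annotation held 1201 divergent pairs made of 2350 genes. A member peak lay at 396 of these pairs, more than the number of members because 14 peaks each lay at more than 1 pair where several genes start together, while 5 pairs had more than 1 peak.

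ChIP-seq of TET2, in which chromatin fragments are pulled down with an antibody and sequenced, was done in primary mouse adipocytes. Stromal vascular cells of inguinal white fat were grown as adipose-derived stem cells and taken to adipocytes in culture with IBMX, dexamethasone and insulin, followed by insulin alone. There was 1 TET2 library and 1 input library, with no genotype, diet or treatment contrast between them. The authors called peaks with MACS2, and the −log10 p given for each peak is the authors' value. Values under 5, found in 36 members, lie below the MACS2 p-value setting that the methods give, and the mismatch was not resolved here. With 1 TET2 library no value has a replicate error, no test between groups was possible, and the exact 95% binomial intervals of shares and order-statistic intervals of medians given below cover counting error only. The list gives no read totals, so the depth behind a peak is unknown. No expression was measured in these libraries, so the labeled cell type was not checked against its markers.

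TET2 is a dioxygenase that oxidizes 5-methylcytosine to 5-hydroxymethylcytosine, and most of its substrate lies at CpG dinucleotides. Divergent promoters are common in mammalian genomes, usually overlap a CpG island, rarely have a TATA box, and often serve genes of DNA repair, mitochondria and basic RNA and protein handling. The stretch between both TSSs acts as a shared promoter, and transcription runs outward from it in both directions. CpG islands are mostly free of methylation, which is the state that TET enzymes help to keep. CpG content is given below as the ratio of observed to expected CpG, for which a bulk genome value is low and a CpG island value is high.

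The stretches between the TSSs of 6 pairs show what these promoters look like, 3 from the pairs with the 10 strongest peaks and 3 from pairs known from textbooks as divergent promoters. Stretches of 50 to 300 bases were taken, and they are given 5′ to 3′ on the plus strand of GRCm38, from the minus-strand TSS to the plus-strand TSS. Capitals mark exact matches, on either strand, to a GC box (GGGCGG, bound by SP1), a CCAAT box (CCAAT, bound by NF-Y) or an ETS motif (CCGGAAG, bound by GABP and other ETS factors).
Zdhhc6/Vti1a, chr19:55316032-55316295: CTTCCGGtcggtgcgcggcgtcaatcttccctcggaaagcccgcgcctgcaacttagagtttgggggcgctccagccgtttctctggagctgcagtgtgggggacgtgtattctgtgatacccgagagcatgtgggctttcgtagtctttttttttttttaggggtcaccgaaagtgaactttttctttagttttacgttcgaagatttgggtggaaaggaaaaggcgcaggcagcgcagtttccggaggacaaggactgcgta
Usp37/Cnot9, chr1:74505806-74506058: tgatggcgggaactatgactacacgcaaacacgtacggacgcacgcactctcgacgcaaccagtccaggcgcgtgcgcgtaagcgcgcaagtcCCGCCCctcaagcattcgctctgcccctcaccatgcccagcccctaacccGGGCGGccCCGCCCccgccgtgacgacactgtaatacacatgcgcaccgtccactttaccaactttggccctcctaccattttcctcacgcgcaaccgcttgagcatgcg
Bag1/Chmp5, chr4:40948294-40948407: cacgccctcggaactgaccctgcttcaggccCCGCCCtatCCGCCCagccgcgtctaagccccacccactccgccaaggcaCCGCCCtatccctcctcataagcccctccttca
Hadha/Hadhb, chr5:30155162-30155248: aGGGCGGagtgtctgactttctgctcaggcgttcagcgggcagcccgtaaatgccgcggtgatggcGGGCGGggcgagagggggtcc
Chchd4/Tmem43, chr6:91473546-91473703: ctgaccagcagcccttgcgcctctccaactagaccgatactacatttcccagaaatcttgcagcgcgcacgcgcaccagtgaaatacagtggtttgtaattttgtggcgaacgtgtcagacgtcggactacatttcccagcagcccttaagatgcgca
Col4a4/Col4a3, chr1:82586849-82586921: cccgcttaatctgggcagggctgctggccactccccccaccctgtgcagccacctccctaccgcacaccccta
The GC content of these stretches ran from 52.5% in Chchd4/Tmem43 to 69.0% in Hadha/Hadhb. Bag1/Chmp5 and Usp37/Cnot9 each held 3 GC boxes, Hadha/Hadhb held 2, and Zdhhc6/Vti1a held an ETS motif at its left end. The stretches of Chchd4/Tmem43 and Col4a4/Col4a3 held none of these 3 motifs, although both pairs had a peak.

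To find out how often TET2 sat at divergent promoters, the share of pairs with a peak was set against the share of genes that stand in no divergent coding pair, called one-way genes here. A peak lay at 33.0% of the 1201 pairs (30.3% to 35.7%). Of the 18457 one-way genes 24.1% had a peak midpoint within 1 kb of any of their TSSs (23.5% to 24.7%), and of all 20807 autosomal protein-coding genes 25.6% did. In windows of equal size, 1 kb each side of the center of a pair or of the start of a gene, the shares were 33.4% of pairs (30.7% to 36.1%) and 19.5% of one-way genes (18.9% to 20.1%). A pair counts once although it holds the starts of both genes. When pairs with overlapping TSS intervals were merged into 1165 places, 383 of them had a peak, or 32.9% (30.2% to 35.7%). The excess over one-way genes was not seen among the strongest peaks. With peaks of −log10 p of at least 10 alone, a peak lay at 2.75% of pairs (1.90% to 3.84%) and 2.75% of one-way genes (2.52% to 3.00%). This rests on 33 pairs with a wide interval, and windows of equal size were not compared at this threshold. The values thus cannot show that the excess is absent there.

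The CpG ratio of the promoter differed between pairs and one-way genes in the same direction as the share with a peak. In the 1 kb around the center, 82.5% of pairs had a CpG ratio of 0.6 or over, compared with 43.0% of one-way genes around their start. Among promoters with a ratio under 0.4, a peak lay at 3 of 90 pairs (3.33%, 0.693% to 9.43%) and at 2.92% of one-way genes (2.56% to 3.31%). The shares between 0.4 and 0.6 were 16.7% of pairs (10.5% to 24.6%) and 21.4% of one-way genes (19.8% to 23%). From 0.6 to 0.8 they were 31.4% (27.3% to 35.7%) and 32.0% (30.6% to 33.4%). At ratios of 0.8 and over they were 44.9% (40.5% to 49.4%) and 39.7% (38.1% to 41.3%). Over all promoters the share of pairs was higher by 13.9 percentage points (95% interval of the difference 11.2 to 16.7). In the highest class it was higher by 5.26 points (0.632 to 9.95). In the other 3 classes, from the lowest up, the difference was 0.416 (-1.81 to 6.44), -4.70 (-10.5 to 3.13) and -0.632 points (-4.79 to 3.79), intervals that hold 0. The part of the CpG ratio in the overall difference was not tested. The median CpG ratio was 0.817 at pairs with a peak (0.803 to 0.834), 0.743 at pairs without (0.729 to 0.753) and 0.508 at one-way genes (0.496 to 0.519).

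**Figure D1:**
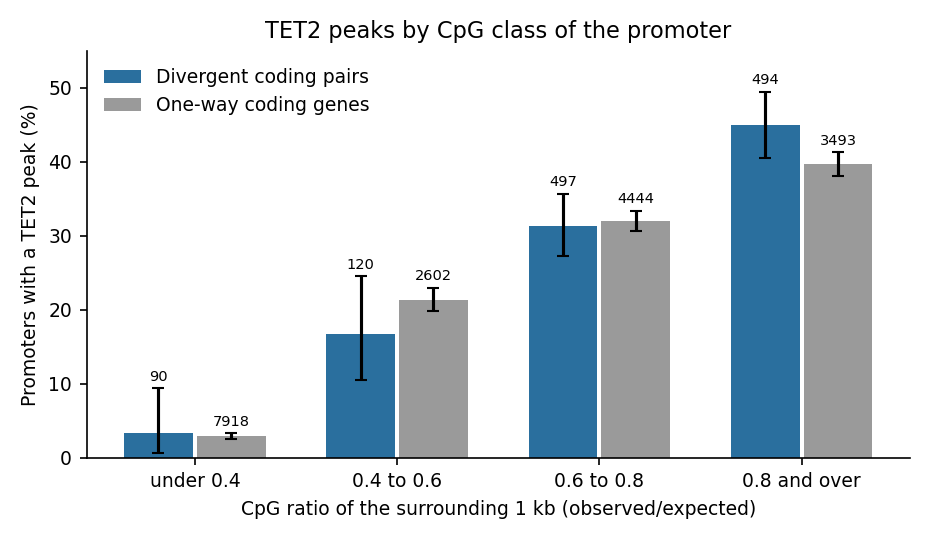
Share of promoters with a TET2 peak midpoint within 1 kb (%), by the observed/expected CpG ratio of the surrounding 1 kb, for divergent coding pairs (blue) and one-way coding genes (gray). Bars are shares, error bars exact 95% binomial intervals and the numbers over them the count of promoters, and both kinds of promoter climb from about 3% in the lowest class to 44.9% of pairs and 39.7% of one-way genes in the highest.

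Pairs whose TSSs lay close together had a peak more often than pairs with distant TSSs. The share was 37.2% of 578 pairs with TSSs 1 to 100 bp apart (33.2% to 41.3%), 32.2% of 438 at over 100 and up to 300 bp (27.8% to 36.8%), 25.3% of 87 at over 300 and up to 500 bp (16.6% to 35.7%) and 18.4% of 98 at over 500 bp (11.3% to 27.5%). The intervals of the closest and the farthest class did not overlap. The rule itself leaves less room for a midpoint where the TSSs are far apart. Among pairs with a CpG ratio of 0.8 and over, the shares in the same order were 49.4%, 43.1%, 26.3% and 37.5%, and the interval of the last class, with 16 pairs, ran from 15.2% to 64.6%. The median distance between the TSSs was 90 bp in pairs with a peak and 115 bp in pairs without. The interval of the first began at 80 bp and ended short of that of the second, which ran from 106 to 128 bp. By chromosome, the share ran from 19.5% of 41 pairs on chromosome 19 (8.82% to 34.9%) to 44.9% of 49 pairs on chromosome 14 (30.7% to 59.8%), these being the extremes of 19 chromosomes. In the 805 pairs without a peak the nearest peak midpoint on the chromosome was a median of 32749 bp away from the center, with a lower quartile of 14755 bp, so few of them were near misses.

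The peaks at divergent pairs were of ordinary strength for a promoter. The −log10 p of the members lay between 3.28 and 14.4 and had its median at 6.90 (6.63 to 7.16), and the median of the other 4716 coding promoter peaks was also 6.90 (6.80 to 6.95). The 8725 autosomal peaks away from coding TSSs had a lower median of 6.21. A −log10 p of at least 10 was reached by 32 of the 387 members (8.27%, 5.72% to 11.5%) and by 10.9% of the other coding promoter peaks (10.0% to 11.8%), a difference of -2.65 points (-5.18 to 0.634). Of the 13828 autosomal peaks 127 exceeded the strongest member, and the highest value at another coding promoter was 335.2. The members themselves set that cut, so none of them can exceed it, and no trait of divergent pairs is read from it. The length of the members lay between 375 and 1461 bp and had its median at 460 bp (442 to 481 bp), against 468 bp in the other coding promoter peaks (463 to 473 bp), and 93 of them had the smallest length found in the list. The median CpG ratio within the peaks was 0.855 in members (0.837 to 0.869), 0.783 in other coding promoter peaks (0.778 to 0.789) and 0.362 in the rest (0.353 to 0.371). The GC content of members and other coding promoter peaks hardly differed, with medians of 66.1% and 66.2% (65.6% to 66.8% and 65.9% to 66.4%). No member was repeat-masked over at least 50% of its bases (0 of 387, interval up to 0.949%), compared with 1.10% of the other coding promoter peaks and 39.9% of the rest. The part of CpG and repeat content in the strength of the peaks was not tested.

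**Figure D2:**
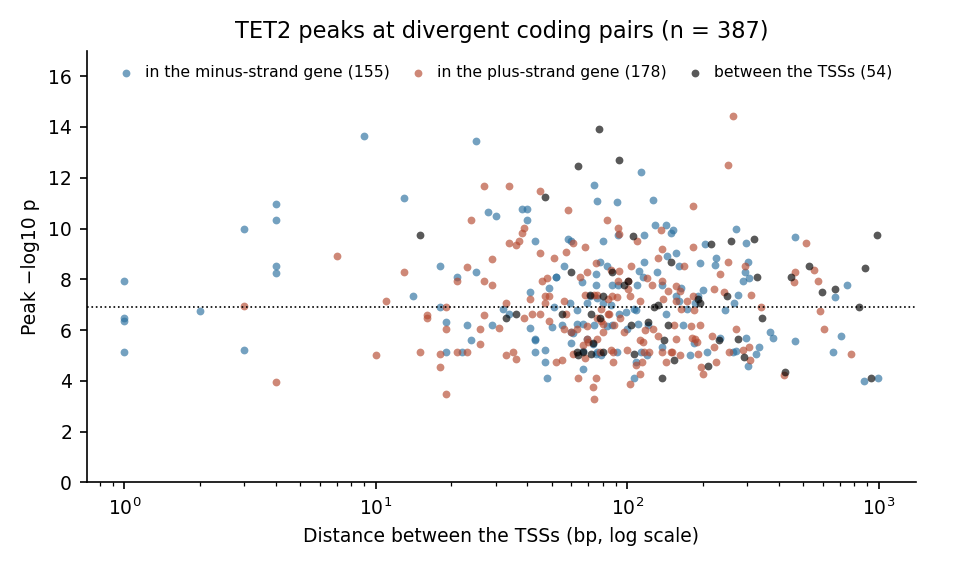
The −log10 p of each of the 387 peaks at divergent coding pairs against the distance between the TSSs of its pair (bp, log scale), colored by where the midpoint lies. The dotted line is the median of 6.90, and values on both sides of it occur from TSS distances of 1 bp to nearly 1 kb.

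The strongest member lay at Zdhhc6/Vti1a (ENSMUSG00000024982 and ENSMUSG00000024983) on chromosome 19, from 55316292 to 55316891, with a −log10 p of 14.4. Zdhhc6 encodes a palmitoyltransferase of the endoplasmic reticulum and Vti1a a SNARE of vesicle fusion, their TSSs are 263 bp apart, and the midpoint lay 296 bp inside Vti1a. At Cops2/Galk2 (13.6), a subunit of the COP9 signalosome and an N-acetylgalactosamine kinase whose TSSs are 9 bp apart, the peak covered neither TSS and lay 489 bp inside Cops2. Pigw/Myo19 (13.4) pairs an enzyme of GPI anchor synthesis with the myosin that carries mitochondria. Its peak covered both TSSs, with the midpoint 277 bp inside Pigw. Atp5f1/Wdr77 (12.7) pairs a stalk subunit of the ATP synthase with the partner of the arginine methyltransferase PRMT5, and its midpoint lay between the TSSs.

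Others of the 10 strongest peaks ran from 12.5 to 11.7. Usp37/Cnot9 (12.5), a deubiquitinase and a subunit of the CCR4-NOT deadenylase, had its midpoint 375 bp inside Cnot9. In Bag1/Chmp5 (12.2), an HSP70 cochaperone and a subunit of the ESCRT-III membrane scission complex, it lay 391 bp inside Bag1. Itgb1bp1/Cpsf3 (11.7), an integrin-binding protein and the nuclease that cuts pre-mRNA ends, and Nmnat1/Lzic (11.7), the nuclear enzyme of NAD synthesis and a leucine zipper protein, had peaks that covered both TSSs. Of all 10 strongest peaks, 3 had their midpoint between the TSSs, and 6 covered both TSSs.

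At the other end of the list, the smallest values were 3.28 at Wdhd1/Socs4, a replication factor and a suppressor of cytokine signaling, 3.46 at 2810004N23Rik/Gnpat, the latter an enzyme of ether lipid synthesis, and 3.77 at A930033H14Rik/Rhobtb1. All 3 midpoints lay inside the plus-strand gene, 115, 174 and 235 bp from its TSS. The peak at Wdhd1/Socs4 covered both TSSs and that at 2810004N23Rik/Gnpat covered 1. The closest TSSs were 1 bp apart, at Pex13/Pus10 (−log10 p 5.14), Tubgcp2/Zfp511 (7.94) and Bag4/Lsm1 (6.47). The most distant were 998 bp apart at 5330417C22Rik/1700013F07Rik (4.12), 981 bp at Asphd1/Sez6l2 (9.76) and 935 bp at Mrpl41/Pnpla7 (4.12). The rule's limits cut through a continuum of positions: the last member inside them had its midpoint 999 bp from the farther TSS, while the peaks at Ccdc148/Pkp4 (1010 bp, −log10 p 8.85), Ttc9c/Hnrnpul2 (1038 bp, 8.06) and Ggps1/Arid4b (1055 bp, 6.26) fell just outside.

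The position of the midpoints within the pair was measured from the closest TSSs of both genes. The midpoint lay between the TSSs in 54 of the 387 peaks (14%, 10.7% to 17.8%), inside the minus-strand gene in 155 (40.1%, 35.1% to 45.1%) and inside the plus-strand gene in 178 (46.0%, 40.9% to 51.1%). The stretch between the TSSs is short, and per length it held 0.975 midpoints per kb, close to the 0.981 per kb of the first 300 bp of the genes and above the 0.502 per kb over all the room inside the genes that the rule allows. The share between the TSSs depended on which TSSs of a gene were taken. It was 38.5% (33.6% to 43.6%) with the TSSs whose center was nearest the midpoint and 40.1% (35.1% to 45.1%) with the TSSs farthest apart, so the split between promoter and gene body cannot be read from the annotation more closely than this. Both TSSs were covered by 154 peaks (39.8%, 34.9% to 44.9%), 1 TSS by 76 (19.6%) and neither by 157 (40.6%, 35.6% to 45.6%). Coverage of both fell with the TSS distance, from 56.9% of 211 peaks at 1 to 100 bp to 0 of 19 at over 500 bp (interval up to 17.6%).

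**Figure D3:**
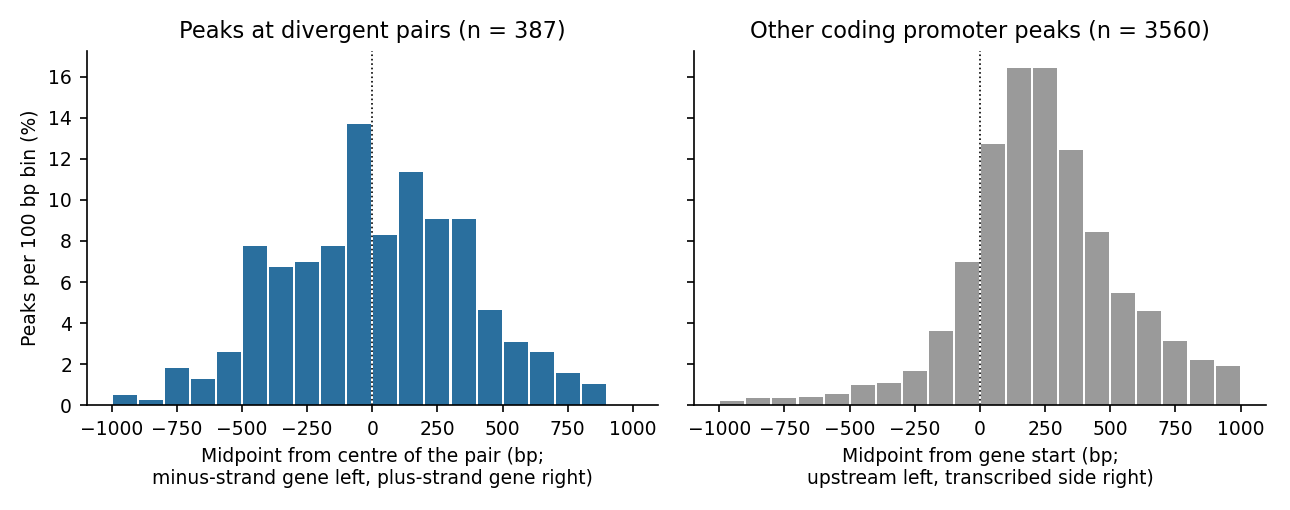
Peaks per 100 bp bin (%) by position of the midpoint. The left panel gives 387 members from the center of their pair and the right panel the 3560 other coding promoter peaks within 1 kb of the start of a gene record; the members spread to both sides, with 13.7% in their fullest bin, while the others gather downstream of the gene start, with 16.4% in each of the 2 fullest bins.

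Around divergent pairs the midpoints spread over both genes, at a median of 255 bp from the center (224 to 293 bp). The midpoint lay inside a gene in 333 peaks, called peaks inside a gene below. Its median distance from the TSS was 218 bp (193 to 248 bp). From the nearest start of a gene record, a reference that can be used for all promoters alike, 67.2% of the members lay downstream (62.3% to 71.8%), at a median of 193 bp (166 to 226 bp). Of the other coding promoter peaks within 1 kb of such a start, 83.6% lay downstream (82.4% to 84.8%), at a median of 275 bp (265 to 287 bp). Both pairs of intervals are separate, but at a pair the nearest start is the nearer of 2, which shortens the distances by construction. At the base under the midpoint, the annotation of the gene was a UTR in 42.3% of the 333 peaks inside a gene (37.0% to 47.8%), a coding exon in 29.4%, an exon of a noncoding transcript in 7.21% and an intron in 21% (16.8% to 25.8%). Among the other coding promoter peaks downstream of the gene start, an intron was found in 30.1% (28.4% to 31.7%), a UTR in 35.9% (34.2% to 37.7%) and a coding exon in 29.7%. These were placed from gene record starts and lay farther in, at a median of 275 bp against 218 bp. The features were not compared at like distance.

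At a divergent pair the peak can lie on either side, so the same promoter offers a comparison of both flanks. In 242 of the 333 peaks inside a gene the peak lay on the side whose first 500 bp had the larger CpG ratio, or 72.7% (67.5% to 77.4%). It lay on the side with the larger GC content in 259 of them (77.8%, 72.9% to 82.1%). The median CpG ratio was 0.829 on the side with the peak (0.815 to 0.851) and 0.713 on the other side (0.684 to 0.743), and the median GC content was 65.4% (64.6% to 65.8%) and 57.2% (56.4% to 58.0%). Among 220 peaks more than 150 bp inside a gene, 168 (76.4%, 70.2% to 81.8%) lay on the side with the larger CpG ratio. Whether base composition itself changed the recovery of fragments was not tested.

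**Figure D4:**
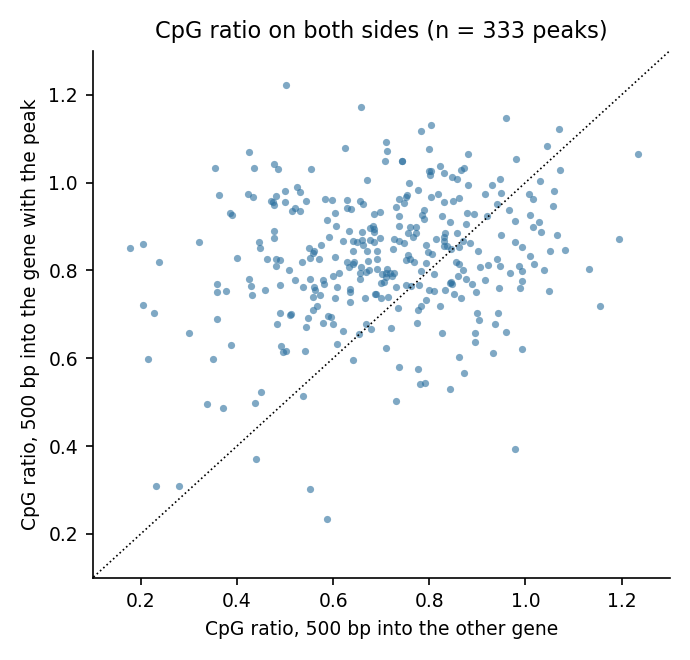
Observed/expected CpG ratio of the first 500 bp into the gene that holds the peak midpoint against that of the first 500 bp into the other gene of the pair, 1 point for each of 333 peaks. The dotted line marks equal ratios, and 242 points (72.7%) lie above it.

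The flanks of 3 pairs show both sides in letters. For each, 120 bases around the midpoint are given with the 120 bases at the same distance from the center on the other side, 5′ to 3′ on the plus strand of GRCm38 with each CpG in capitals. These pairs have the largest −log10 p among the peaks over 200 bp inside a gene where both windows hold at most 30 bases of UTR.
Cops2/Galk2, peak side, in Cops2, chr2:125858590-125858709: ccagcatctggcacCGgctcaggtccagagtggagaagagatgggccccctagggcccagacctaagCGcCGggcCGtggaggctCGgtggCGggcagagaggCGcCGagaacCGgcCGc
Cops2/Galk2, opposite side, in Galk2, chr2:125859577-125859696: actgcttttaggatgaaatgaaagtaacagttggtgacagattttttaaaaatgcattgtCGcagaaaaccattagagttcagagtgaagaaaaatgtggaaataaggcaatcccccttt
Orc3/Rars2, peak side, in Orc3, chr4:34614658-34614777: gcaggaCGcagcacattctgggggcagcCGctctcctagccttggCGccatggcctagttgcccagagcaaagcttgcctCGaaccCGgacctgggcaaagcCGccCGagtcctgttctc
Orc3/Rars2, opposite side, in Rars2, chr4:34615123-34615242: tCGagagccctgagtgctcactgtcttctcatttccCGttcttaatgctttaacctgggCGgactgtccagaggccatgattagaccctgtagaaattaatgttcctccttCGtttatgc
Hjurp/Trpm8, peak side, in Hjurp, chr1:88277345-88277464: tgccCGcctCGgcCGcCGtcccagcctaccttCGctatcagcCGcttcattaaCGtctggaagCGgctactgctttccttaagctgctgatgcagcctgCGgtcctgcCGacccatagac
Hjurp/Trpm8, opposite side, in Trpm8, chr1:88277829-88277948: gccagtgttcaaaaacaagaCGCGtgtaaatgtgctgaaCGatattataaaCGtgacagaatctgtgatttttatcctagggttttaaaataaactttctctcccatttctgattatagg
In Cops2/Galk2 the window on the peak side held 10 CpGs and that on the other side 1, at a GC content of 71.7% and 35.0%. In Hjurp/Trpm8, a histone chaperone of the centromere and a cold-sensing channel, the counts were 10 and 4, at 61.7% and 35.0%. In Orc3/Rars2, an origin recognition subunit and the mitochondrial arginyl-tRNA synthetase, they were 7 and 4, at 65% and 47.5%. Over the first 500 bp into each gene the CpG ratio was 0.737 on the peak side and 0.700 on the other in Cops2/Galk2, and 0.850 and 0.550 in Hjurp/Trpm8. In Orc3/Rars2 it was 0.720 and 0.783, so by that measure this peak is one of the 91 that lie on the side with the lower CpG ratio, although its 120-base windows have more CpGs around the midpoint.

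Promoter motifs were searched from 150 bp before to 150 bp after the center of each pair and the start of each one-way gene, on both strands. The ETS motif was more frequent at pairs than at one-way genes, over all promoters and at like CpG ratio. It was found at 27.6% of all pairs (25.1% to 30.3%) and 10.2% of one-way genes (9.72% to 10.6%), and among promoters with a CpG ratio of 0.8 and over at 32.0% (27.9% to 36.3%) and 18% (16.7% to 19.3%). The CCAAT box was found at 39.3% of pairs (34.9% to 43.7%) and 30.5% of one-way genes (28.9% to 32.0%) in that CpG class. The GC box went the other way there, with 73.3% of pairs (69.1% to 77.1%) and 81.2% of one-way genes (79.9% to 82.5%), although over all promoters it was more frequent at pairs (64.2% and 44.3%). These shares describe the promoters whether or not a peak lies there. The windows are equal in size but not alike. That of a pair is centered between the TSSs of both genes, and that of a one-way gene on a single start. The part of this in the shares was not tested.

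The motifs were then compared between pairs with and without a TET2 peak. The windows reach 150 bp from the center, while the member midpoints lay a median of 255 bp from it. Many windows thus do not hold the midpoint, and the shares describe the promoter and not the sequence under the peak. Over all pairs a GC box was found at 70.7% with a peak (66.0% to 75.1%) and 61.0% without (57.5% to 64.4%), and the C/EBP motif TTNNGNAA at 19.7% (15.9% to 24.0%) and 30.2% (27% to 33.5%), and in both cases the intervals were separate. C/EBP factors drive adipocyte differentiation. Most fixed letters of this short motif are A or T, the pairs with a peak have the higher CpG ratio, and the part of base composition in these shares was not tested. Among pairs with a CpG ratio of 0.8 and over, the shares with and without a peak were 73.3% and 73.3% for the GC box, 17.2% (12.5% to 22.8%) and 26.4% (21.2% to 32.0%) for C/EBP and 33.9% (27.7% to 40.6%) and 30.4% (25% to 36.2%) for ETS. The difference for C/EBP was -9.18 points (-16.2 to -1.81) in this class and -7.12 points (-14.9 to 1.52) at ratios from 0.6 to 0.8, while those for the GC box and ETS had intervals that hold 0 in both classes. The ETS motif over all pairs was at 30.3% with a peak (25.8% to 35.1%) and 26.3% without (23.3% to 29.5%), and CCAAT at 41.4% and 39.5%. The rarer motifs were the E-box CACGTG (10.4% with a peak and 10.4% without), NRF1 (GCATGCGC, 6.57% and 5.59%), YY1 (AAGATGGCG, 5.30% and 4.72%), the cAMP response element (TGACGTCA, 4.29% and 3.73%) and the TATA box (TATAAA, 3.03% and 5.96%). Of these 5, the difference for the TATA box was -2.93 points (-5.19 to -0.313) and the intervals of the other 4 held 0. The TATA box was found at 12 of 396 pairs with a peak and 48 of 805 without. By CpG class its difference was -4.40 points (-7.755 to -0.162) from 0.6 to 0.8 and -0.496 points (-3.86 to 3.13) at 0.8 and over. One-way genes with and without a peak differed in the same directions for the GC box (71.0% and 37.9%), C/EBP (21.2% and 37.3%) and the TATA box (5.9% and 12.9%). The contrasts in these motifs over all promoters are thus not particular to divergent pairs. The CCAAT box was less frequent at one-way genes with a peak (31.1%) than without (37.2%).

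**Figure D5:**
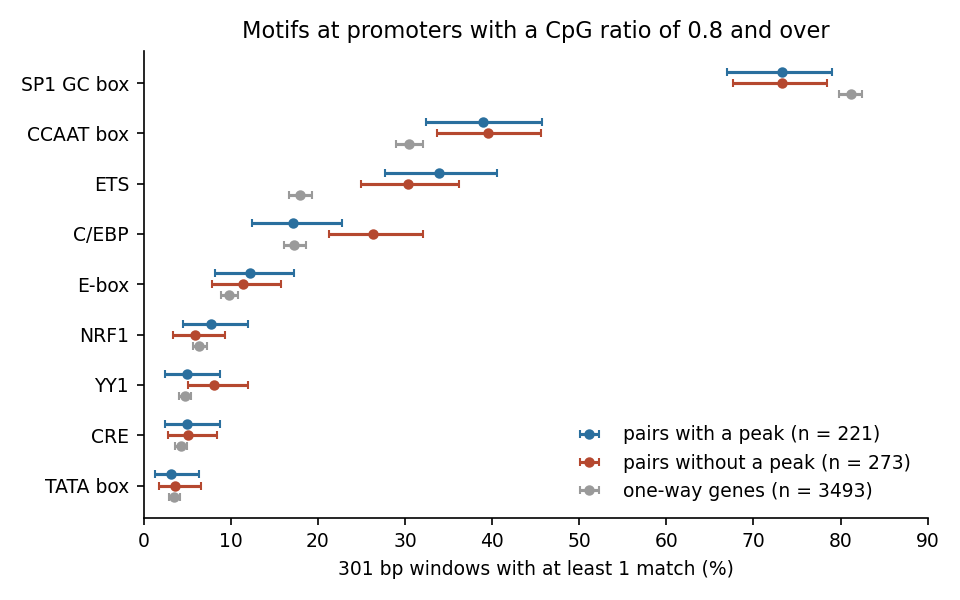
Share of windows reaching 150 bp to each side with at least 1 match (%) among promoters with a CpG ratio of 0.8 and over, for 221 pairs with a peak (blue), 273 pairs without (red) and 3493 one-way genes (gray). Points are shares and bars exact 95% binomial intervals, and both kinds of pair lie above one-way genes for ETS, while pairs with a peak have the lower share for C/EBP (17.2% against 26.4%).

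The genes of the pairs were grouped into 18 functional lists by their symbols, and a pair belonged to a list when either gene did. Over all 1201 pairs 33.0% had a peak, and the interval of 17 of the 18 lists held this share. The exception was the cilium and centrosome list, with 16 of 30 pairs (53.3%, 34.3% to 71.7%), against 23 of 76 one-way genes of the same list (30.3%, 20.2% to 41.9%). The difference was 23.1 points (2.62 to 41.9), but a 95% interval misses its value now and then, and 18 lists were examined. The strongest of these peaks were at Cep63/Anapc13 (−log10 p 10.1), which pairs a centrosomal protein with a subunit of the anaphase-promoting complex, and Ttc13/Arv1 (9.02). Tnfaip1/Ift20 (7.79), with the intraflagellar transport protein of the Golgi, and Cep170/Sdccag8 (7.49), both centrosomal, followed. The list takes in tetratricopeptide (Ttc) genes, of which several have no known part in cilia, and without them 12 of 21 pairs had a peak (57.1%, 34% to 78.2%).

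DNA repair and replication, a class often found at divergent promoters, had a peak at 22 of 47 pairs (46.8%, 32.1% to 61.9%), from 20 different peaks, and at 25 of 81 one-way genes (30.9%, 21.1% to 42.1%). The difference was 15.9 points, with an interval (-1.285 to 32.6) that holds 0. Orc3/Rars2 had the largest value (11.2), ahead of Xpc/Lsm3 (10.8), in which the damage sensor of nucleotide excision repair stands beside a splicing factor. Rad9b/Vps29 had 9.94, and Pms1, a mismatch repair gene, had 9.80 at a peak that it shares with Ormdl1, a regulator of sphingolipid synthesis, and Gm28778. Aimp2/Pms2, with another mismatch repair gene, had 8.68.

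In the lists of the mitochondrial ribosome and the respiratory chain, pairs had a peak about as often as over all pairs, within wide intervals. The mitochondrial ribosome had a peak at 9 of 28 pairs (32.1%, 15.9% to 52.4%), led by Mrps18b/Ppp1r10 (11.5) and Mrpl18/Tcp1 (9.51). The respiratory chain had 10 of 33 (30.3%, 15.6% to 48.7%), among them Atp5f1/Wdr77 (12.7), Emc8/Cox4i1 (10.1), with a subunit of cytochrome c oxidase, and Uqcrq/Gdf9 (7.34). Atp5j/Gabpa (8.32) pairs an ATP synthase subunit with the ETS factor GABPα. Chaperones and import had 4 of 8 pairs (15.7% to 84.3%), with Timm23/Parg (8.85), Timm9/2700049A03Rik (7.66), Hspd1/Hspe1 (7.37) and Chchd4/Tmem43 (7.34). The tRNA synthetases, a list of cytosolic and mitochondrial enzymes, had 4 of 9 pairs (44.4%, 13.7% to 78.8%), among them Kars/Terf2ip (8.65).

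In the lists of gene expression and protein turnover, RNA polymerase and TFIID had a peak at 9 of 24 pairs (37.5%, 18.8% to 59.4%), led by Lnx2/Polr1d (9.66). Splicing had 8 of 26 (30.8%), translation factors 2 of 13 (15.4%, 1.92% to 45.4%) and the cytosolic ribosome 4 of 15 (26.7%), with Rpl15/Nkiras1 (8.28) the strongest. The proteasome had 4 of 11 (36.4%), with Psmb9/Tap1 (9.82) first and Psmb1/Tbp (7.94), in which a core subunit stands beside the TATA-binding protein, second. Ubiquitin conjugation had 9 of 41 (22%, 10.6% to 37.6%), vesicle trafficking 8 of 36 (22.2%) and zinc finger proteins 8 of 35 (22.9%, 10.4% to 40.1%). Core and linker histones had 5 of 14 pairs (35.7%, 12.8% to 64.9%), led by Hist1h2ak/Hist1h2bn (9.41) and Hist1h2ac/Hist1h2bc (8.68). Histone genes exist in near-identical copies among which reads can be split, so the place of a histone peak is uncertain.

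Pairs with a gene of adipocytes or lipid metabolism were few, and 3 of 10 had a peak (6.67% to 65.2%), against 32 of 100 one-way genes of this list. Each of the 3 holds a gene of fatty acid oxidation. Etfdh, which passes electrons from fatty acid oxidation to ubiquinone, stands 216 bp from 4930579G24Rik, and a peak of 910 bp with a −log10 p of 9.39 covered both TSSs. Hadha and Hadhb encode both subunits of the mitochondrial trifunctional protein, and their peak (8.36, 571 bp) covered both TSSs, which are 86 bp apart, with its midpoint 40 bp inside Hadhb. Acaa1a, a peroxisomal thiolase, starts 3 bp from Myd88, the adaptor of Toll-like receptors, and the peak (6.95) lay 273 bp inside Acaa1a without covering a TSS. No member peak was found at Tada2a/Acaca (acetyl-CoA carboxylase), Slc39a7/Rxrb and Nr1h3/Acp2 (nuclear receptors), Rnf5/Agpat1 (an acyltransferase of lipid synthesis), Sirt3/Psmd13 (a mitochondrial deacetylase), Slc27a5/Trim28 (a fatty acid transport protein of the liver) or Cebpz/Ndufaf7. The nearest midpoint to these 7 pairs was 9238 bp away, at Slc27a5/Trim28. Cebpz was listed by its symbol, and its part in adipocytes was not checked.

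Of 25 divergent pairs known from textbooks the annotation held 21 under this rule, and 7 of them had a peak, with −log10 p from 6.04 to 9.82. Over all 1201 pairs 33.0% had a peak (30.3% to 35.7%), close to the share of the textbook pairs, so no trait of these is read from the split. Psmb9/Tap1 (9.82), an immunoproteasome subunit and a peptide transporter of antigen presentation, had its midpoint 346 bp inside Tap1. Mcm4/Prkdc (8.28), a replicative helicase subunit and the kinase of end joining, had it 27 bp inside Prkdc. In Hspd1/Hspe1 (7.37), the mitochondrial chaperonin and its cochaperonin, the midpoint lay between the TSSs, 10 bp from the center. Col4a4/Col4a3 (6.63), the collagen chains of the kidney basement membrane, had it 6 bp from the center at a CpG ratio of 0.455, the lowest of the 7. The remaining 3 were Hadha/Hadhb (8.36), Chchd4/Tmem43 (7.34) and Hars/Hars2 (6.04), the closely related cytosolic and mitochondrial histidyl-tRNA synthetase genes.

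Without a peak were 14 of the 21 pairs, among them Brca1/Nbr1, Atm/Npat and Wrap53/Trp53 of DNA repair and the damage response, Ppat/Paics and Gart/Son of purine synthesis, Col4a1/Col4a2, Surf1/Surf2 and Mrps12/Sars2. The CpG ratio of these 14 ran from 0.547 at Wrap53/Trp53 to 0.898 at Gart/Son, which spans most of the range of the 7 pairs with a peak (0.455 to 0.927). The nearest midpoint was 5328 bp away at Surf1/Surf2 and 94526 bp away at Col4a1/Col4a2, the shortest and the longest distance of the 14.

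More than 1 peak lay at 5 pairs, which make up 4 places because Emc8 and Gm27021 both stand opposite Cox4i1. At Emc8/Cox4i1 a peak of −log10 p 10.1 lay 509 bp left of the center inside Emc8 and a peak of 7.94 lay 433 bp right of it inside Cox4i1. At Srsf2/Mfsd11, a splicing factor and a membrane protein of the major facilitator family, the peaks lay 370 bp to the left (7.57) and 356 bp to the right (4.29). Psma7/Ss18l1, a proteasome subunit and a chromatin protein of neurons, had peaks 158 bp to the left (7.28) and 620 bp to the right (5.65). In these 3 places 1 midpoint lay in each gene, and the peak with the larger value had its midpoint in the minus-strand gene, although at Psma7/Ss18l1 that peak covered both TSSs. At Fbxo45/Wdr53 both midpoints lay on the side of Fbxo45, a ubiquitin ligase subunit, at 655 bp (7.05) and 53 bp (5.66) from the center. The nearer peak covered both TSSs.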

How the data were processed

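ChIP-seq was analyzed in 1 TET2 library and 1 input library of adipocytes differentiated in culture. Per the labels and the study's methods, the authors trimmed reads, aligned them with Bowtie and called TET2 peaks against the input with MACS2 2.1.0. The deposited list gives, for each peak, an interval and a value taken as the −log10 p of the peak caller, computed by the authors, because in the study's supplementary table it stands where MACS2 writes it, between pileup and fold enrichment. Of the 14103 values 2182 are under 5, which a peak caller limited by the p-value setting that the study states would not give, so that setting does not describe this list or the values are not exactly that p. No file of the input library was used. The labels name mm10, the UCSC name of GRCm38, while the study's methods name GRCm39. GRCm38 was used, as in the labels, with sequence and repeat masking from RefSeq and genes from GENCODE M21, and no coordinates were converted. No midpoint fell in an assembly gap of GRCm38 and no peak ran past a chromosome end (0 and 0). GRCm39 was not examined in this way, so these counts cannot tell the builds apart.

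Peaks were placed by midpoint, since the list holds no summits. Every annotated transcript start of a protein-coding gene counted as a TSS, and a pair was described by its closest TSSs. The CpG ratio is the number of CpGs times length over the product of the C and G counts. Shares have exact 95% Clopper-Pearson intervals medians exact order-statistic intervals, and differences of shares Newcombe intervals from Wilson limits. Total reads per library were not used here, so the precision of single peaks is unknown. Members, gene lists and motifs were chosen with earlier results of these data known, and 2 lists were trimmed after their members were seen (Col4a3bp left collagen and Eef1akmt genes left translation). Named were the 10 largest and 3 smallest −log10 p, textbook pairs, pairs with adipocyte genes, up to 4 pairs for each list, pairs with more than 1 peak, and the 3 closest and 3 most distant TSS pairs. A few pairs that this rule takes in are not reported here. Other genes named beside these were chosen after their values were seen. Alternatives changed the TSS set, the −log10 p threshold, TSS and midpoint distances, chromosomes, repeats and motif windows. The member search and the ETS motif search were tested on simulated data. So was the placing of midpoints between the TSSs or in the plus-strand gene. Other steps were not tested in this way. The versions were 3.11.15 for Python, 1.17.1 for scipy, 0.24.0 for pysam, 2.3.3 for pandas, 2.4.6 for numpy and 3.10.9 for matplotlib.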

Additional observations from a re-analysis of the deposited data

How the results depend on the processing

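Of 133 values under alternatives, 97 stayed within the interval of the value reported (within 1.5 times for the number of peaks) and 36 moved. Each value was judged alone, so these counts do not say whether a comparison kept its direction. The higher share of pairs than of one-way genes was not kept with −log10 p of at least 10, where 33 pairs had a peak and the interval was wide. Of the alternatives 10 were chosen after seeing the data, namely the other choices of TSSs for placing a peak, the other side windows and GC content, and the cilium list without Ttc genes. No paired analysis was possible because the TET2 library has no replicate and its groups were not tested against each other. The number of members was 237 with gene record starts only and 32 with −log10 p of at least 10. The share of pairs with a peak was 29.9% with −log10 p of at least 5, 2.75% with at least 10, 29.7% with TSSs up to 2 kb apart and 25.3% with midpoints within 500 bp. The share of one-way genes was 22.8% with TSSs of coding transcripts, 20.01% with gene record starts, 21.6% and 2.75% with −log10 p of at least 5 and 10, 21.3% within 500 bp, 26.6% within 2 kb, 24.8% with any base of the peak and 23.3% with chromosome X. With −log10 p of at least 10, both TSSs were covered by 56.2% of the peaks, the median −log10 p was 11.1 by construction and the median length 559 bp. Both were covered by 53.0% with midpoints within 500 bp and by 23% with the TSSs farthest apart. The midpoint lay between the TSSs in 38.5% with the TSSs nearest the midpoint and 40.1% with the farthest. The peak lay on the CpG-richer side in 65.8% with 250 bp windows and on the GC-richer side in 77.8%. Motif shares at pairs with a peak change with the window by construction. Pairs without a peak were not searched in the other windows. With 75 bp each side they were 54.0% for the GC box, 31.8% for CCAAT, 22% for ETS, 4.04% for NRF1, 2.02% for YY1, 7.32% for the E-box, 1.01% for TATA and 10.4% for C/EBP, and with 250 bp each side 80.8% for the GC box, 48.5% for CCAAT, 36.6% for ETS, 15.2% for the E-box and 31.3% for C/EBP. For the other changes the cause was not tested. With 1 library, depth and replicate spread cannot be judged, and a pair without a peak may be one where the signal stayed under the authors' threshold.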
